A study of Saccharomyces cerevisiae with 18 samples.

Results

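Spores of budding yeast that had received glucose and nothing else were compared at the last and at an early sampling time, 128 min against 4 min after glucose was added. Of the 53 arrays of the time course, 6 belong to this comparison, 3 at 4 min and 3 at 128 min. They were chosen by their labels alone, with 4 min as the baseline because 0 min in glucose has 2 arrays. The Saccharomyces cerevisiae spores were of the Y55 strain background, came from a homothallic (HO) diploid sporulated in potassium acetate, were freed from asci and unsporulated cells with zymolyase, and received 2% glucose. The other medium of the study, YPD, adds yeast extract and peptone to the same share of glucose. RNA of every sample carried Cy5 and was hybridised against RNA of dormant spores in Cy3, so that a log2 ratio of 0 is the level in dormant spores. All ratios ran the same way round, without a dye swap. The study asked what a fermentable sugar alone sets in motion, as opposed to sugar with nitrogen and amino acids.

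A spore is a haploid product of meiosis, wrapped in a thick wall and filled with trehalose and protective proteins. Glucose can start germination, in which the stored trehalose is broken down, the wall loosens and the cell takes up water. Translation and transcription restart early, stress protection is dismantled, and genes for the use of non-fermentable carbon are repressed by glucose. Amino acid synthesis is under general control by the activator Gcn4, sulphur genes answer to Met4 with its partners Met31 and Met32, and genes for scavenging nitrogen are held down by nitrogen catabolite repression when good nitrogen sources abound. The label names the cells only as spores. Of 12 marker genes of spores, all 12 had Cy5 above background in both groups on at least 1 array, and 7 fell by 128 min, led by SPS100, a protein of spore wall maturation.

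The 3 arrays at 4 min lay close to the dormant reference. Their log2 ratios had an SD over genes of 0.288 to 0.525, and they correlated with each other across genes at 0.0665 to 0.381. The 3 arrays at 128 min had an SD of 0.724 to 0.885 and correlated at 0.788 to 0.911, replicate 3 being the least like the other two. A spot counted as above background when its signal passed the local background by 2 SD, which held for 71.5% to 88.2% of spots in Cy5 and 47.3% to 79.8% in Cy3. Replicate 3 at 4 min had 228 genes at least 2-fold above the dormant level, against 10 and 5 on replicates 1 and 2. The arrays came in 2 printed layouts and were quantified on several days, and each time point holds arrays of both layouts. At 128 min replicates 1 and 2 were of the first layout and of 1 day, which holds no array of 4 min. Replicate 3 was of the second layout and of the day of replicate 1 at 4 min. Replicates 2 and 3 at 4 min came from other days, and replicate 3 was the only one there of the first layout. Time is thus largely tied to day in this comparison. What sets replicate 3 apart at either time cannot be told apart from layout and day. Since every array was centred on its median, a change in total RNA per spore is not seen, and in a bulk sample fewer cells of a type cannot be told apart from less RNA per cell.

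Glucose alone took spores away from the dormant state in both directions. Among 6003 genes with a value on at least 2 arrays of each time point, 797 genes (13.3%) were higher and 920 genes (15.3%) were lower at 128 min than at 4 min in limma's moderated test, at a Benjamini-Hochberg adjusted p under 0.05, together 28.6%. Without adjustment 39.2% of genes had a p under 0.05. At least 2-fold differences made up 467 of the rises (7.78%) and 525 of the falls (8.75%). Measured from dormant spores, with no test, the mean at 128 min was at least 2-fold higher for 429 genes (7.15%) and at least 2-fold lower for 542 genes (9.03%), against 28 (0.466%) and 9 (0.15%) at 4 min. The 3 arrays of one time did not overlap with the 3 of the other for 2153 of the 4910 genes with a value on all 6 arrays (43.8%). Without replicate 3 at 128 min the counts were 787 higher and 951 lower, without replicate 3 at 4 min 674 and 732, and without replicate 2 at 128 min 523 and 625. Within the first layout (1 array at 4 min, 2 at 128 min) 692 genes were higher and 1071 lower, within the second (2 and 1) 355 and 329, and with quantification day as a fixed block 329 and 290. Of the genes called, 99.9% in the first layout and 99.8% in the second had the direction of the pooled comparison. In the single pair of arrays of 1 layout quantified on 1 day it was 99.6%. These genes were called on the same arrays, so agreement in direction was largely set in advance and is no independent check. With day as a fixed block 535 of 1642 called genes with a value kept their call.

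**Figure D1:**
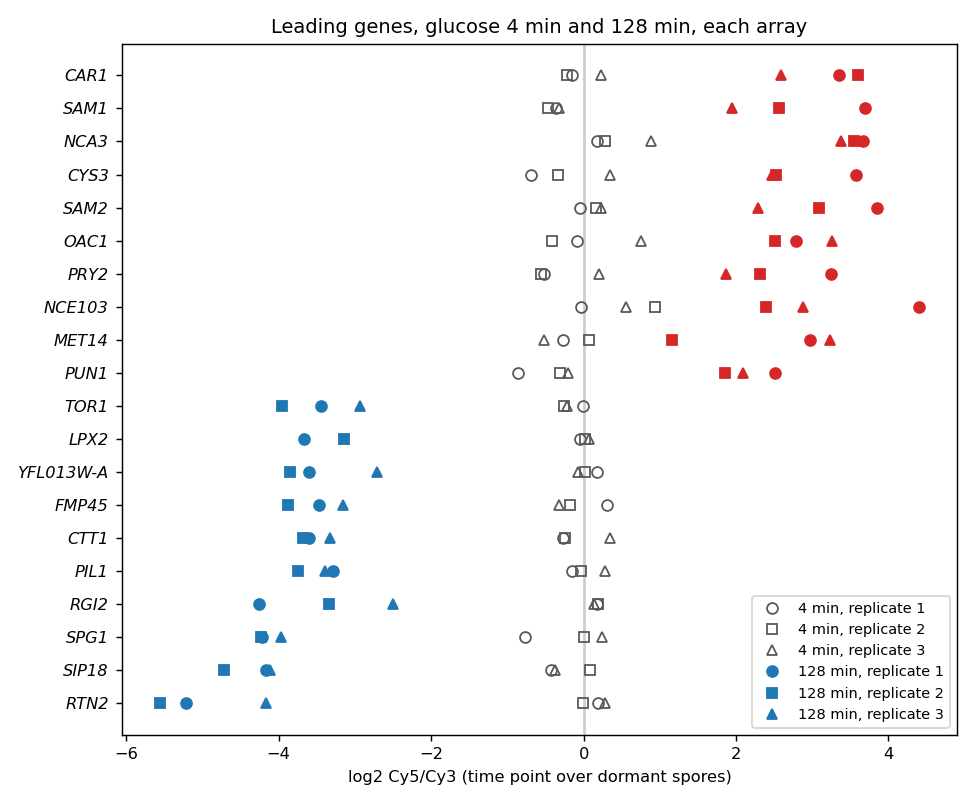
Log2 Cy5/Cy3 (x axis, time point over dormant spores) on each of the 6 arrays for the 10 largest rises and the 10 largest falls that met the naming rule, 1 gene per line. Open grey symbols are 4 min and filled symbols 128 min, with shapes for replicates 1 to 3. The open symbols sit near 0, from -0.86 for PUN1 to 0.94 for NCE103. The naming rule required groups that do not overlap.

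Genes of dormancy and stress protection were among the steepest falls. RTN2, a reticulon-like protein of the endoplasmic reticulum, had log2 ratios of 0.19, -0.01 and 0.28 on the 3 arrays at 4 min and -5.22, -5.56 and -4.17 at 128 min. The groups lay far apart, the fall was 35.1-fold (log2 difference -5.13, SE 0.45, adjusted p 2.06e-07), and replicate 3 at 128 min was the nearest to the early level. SPS100, measured on replicates 2 and 3 at 4 min, stood at 0.52 and 0.67 and then at -4.72, -4.74 and -4.11. Its fall of 34.8-fold (adjusted p 2.88e-08) was of the size of that of RTN2. SIP18, a hydrophilin that protects against drying, had -0.43, 0.09 and -0.38 and then -4.17, -4.71 and -4.11, a fall of 17-fold (adjusted p 3.03e-07). GRE1, its close relative, was lower by 18.5-fold (adjusted p 1.63e-07), with -0.53, -0.31 and -0.25 at 4 min and -4.43 and -4.72 on the 2 arrays measured at 128 min. Both hydrophilins were thus at about the dormant level at 4 min on every array, with no overlap.

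Catalase CTT1 and SPG1, a gene needed for survival in stationary phase, behaved alike. CTT1 read -0.27, -0.25 and 0.35 at 4 min and -3.61, -3.68 and -3.32 at 128 min (fall of 11.1-fold, adjusted p 5.23e-08). SPG1 read -0.76, 0.01 and 0.25 and then -4.22, -4.23 and -3.97 (15.7-fold, adjusted p 2.57e-08). In the list of hydrophilin and stress genes, 41 of 46 members had a value, of which 31 fell, 2 rose and 8 did not pass the test, with a median log2 difference of -1.87 where the median of all genes tested was -0.02. The medians of the list were -2.02, -2.31 and -1.12 on the 3 arrays at 128 min, so that replicate 3, of another layout and day, showed the smallest shift. The 2 members that rose were HSP42, a small heat shock protein (3.03-fold, adjusted p 0.0139), and NCE103, a carbonic anhydrase described further on. The call for HSP42 was lost without replicate 1 at 128 min (adjusted p 0.0571), replicate 2 at 128 min (0.0841) or replicate 1 at 4 min (0.0617). HSP12, a membrane-protecting stress protein, read -0.28 and -0.18 on the 2 arrays measured at 4 min and -4.06, -4.13 and -3.58 at 128 min, a fall of 12.9-fold (adjusted p 4.42e-06). Under print-tip loess, a normalization fitted within each block of spots, HSP12 differed by -0.35 (adjusted p 0.366) and FMP45, a membrane protein of sporulation, by -0.42 (adjusted p 0.723).

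Trehalose and glycogen genes were lower too. Of 18 members with a value, 13 fell and none rose (median -1.22). GLC3, the glycogen branching enzyme, fell 6.25-fold (adjusted p 5.84e-05), with -2.76, -3.14 and -1.25 at 128 min against -0.02, 0.26 and 0.55 at 4 min. TPS2, the phosphatase that completes trehalose synthesis, fell 4.59-fold (adjusted p 0.000229), from 0.31, 0.48 and -0.09 to -2.07, -1.99 and -1.82. Of the chaperones 7 of 28 were lower and 5 higher, beside 15.3% and 13.3% of all genes, and 3 were higher without replicate 1 or 2 at 128 min or replicate 1 at 4 min. HSP26 fell 6.36-fold (adjusted p 0.000491) from 0.01, 0.17 and 0.31 to -2.75, -3.74 and -1.03, a wide spread in which replicate 3 was again the highest. With quantification day as a fixed block HSP26 differed by -0.97 (adjusted p 0.25). SSE1, a nucleotide exchange factor for Hsp70, rose instead, from -0.24, -0.01 and 0.18 to 2.26, 2.04 and 1.28 (log2 difference 1.88, adjusted p 0.00061; 0.0693 with day as a fixed block). The Hsp70 co-chaperone YDJ1 rose by 1.34 on the log2 scale (adjusted p 0.0067), and by 0.44 (adjusted p 0.382) with day as a fixed block.

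Genes for growth without sugar were lower at 128 min. In gluconeogenesis, the glyoxylate cycle and acetate use, 16 of 21 members with a value fell and 1 rose (median -1.72). FBP1, fructose-1,6-bisphosphatase and a hallmark of glucose repression, read -0.21, -0.12 and 0.26 at 4 min and -3.18 and -4.26 on the 2 arrays measured at 128 min. This was a fall of 13-fold (adjusted p 7.37e-07). PCK1, which makes phosphoenolpyruvate from oxaloacetate, stood at 0.30, 0.27 and 0.29 and then at -2.46 and -3.30, a fall of 8.98-fold (adjusted p 6.47e-05). ACS1, the acetyl-CoA synthetase of aerobic growth, fell 8.43-fold (adjusted p 0.000439), but one of its early arrays was already low, with -2.48, -0.17 and 0.14 at 4 min and -4.52, -3.72 and -3.49 at 128 min. With day as a fixed block the difference was -1.29 (adjusted p 0.118). The member that rose was MAE1, the mitochondrial malic enzyme (log2 difference 0.98, adjusted p 0.0129).

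Respiration moved the same way. Of 34 members with a value, 18 fell and none rose (median -0.74), and in the TCA cycle 9 of 18 fell and none rose (median -0.75). SDH2, the iron-sulphur subunit of succinate dehydrogenase, went from 0.15, 0.06 and -0.09 to -2.65, -2.68 and -2.95, a tight fall of 6.96-fold (adjusted p 5.67e-07). Peroxisomal and fatty acid oxidation genes had 15 of 37 lower and 1 higher, but 7 lower without replicate 1 at 128 min, 8 without replicate 2 and 1 of 35 with day as a fixed block. POT1, the thiolase of that pathway, was lower by 2.49 on the log2 scale (adjusted p 0.00151), a difference of -1.65 (adjusted p 0.188) with day as a fixed block. Among hexose transporters and their regulators 3 of 21 fell and 2 rose, no larger shares than the 15.3% and 13.3% of all genes. HXT6, a high-affinity transporter nearly identical to HXT7, fell 5.19-fold (adjusted p 3.61e-05), from 0.77, 0.14 and 0.53 to -2.18, -2.33 and -1.18.

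Glycolytic genes were lower than in dormant spores as well, but they are measured in part only. Because spots with a poor or manual mark were dropped, 10 of 24 members had a value, and of these 7 fell and none rose (median -2.24). GLK1, glucokinase, went from -0.57, -0.17 and -0.06 to -2.91, -3.05 and -2.29, a fall of 5.58-fold (adjusted p 2.7e-06). PGI1, phosphoglucose isomerase, fell 5.39-fold (adjusted p 3.51e-06), from -0.17, -0.67 and -0.51 to -3.06, -3.30 and -2.29. With those spots kept, 20 of 24 fell and none rose, at a median of -2.11. With print-tip loess 3 of 10 fell at a median of -0.64, and the difference for PGI1 was -0.45.

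**Figure D2:**
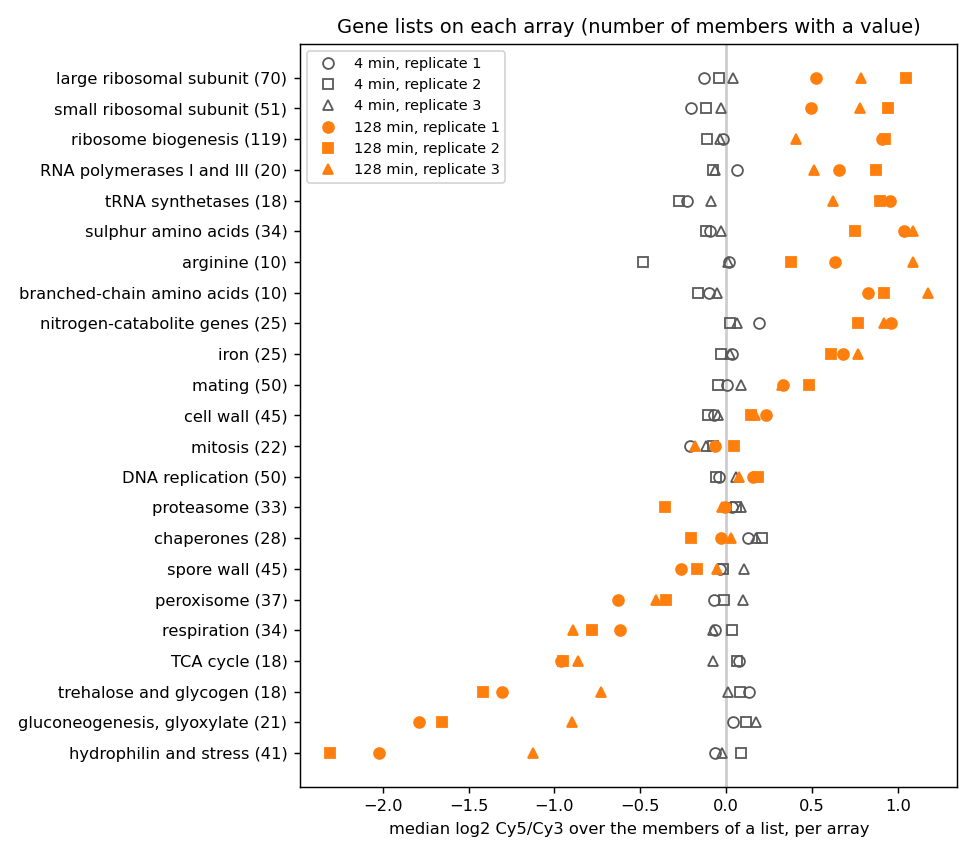
Median log2 Cy5/Cy3 (x axis) over the members of 23 gene lists, with the number of members with a value in brackets, on each array at 4 min (open grey) and 128 min (filled orange), shapes for replicates 1 to 3. The 4 min medians stay near 0, arginine synthesis on replicate 2 being the farthest at -0.49, while the stress list lies at -2.02, -2.31 and -1.12 and the large ribosomal subunit at 0.52, 1.05 and 0.79 at 128 min.

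Genes for making ribosomes were higher at the end. In the large subunit 45 of 70 measured members rose and none fell (median 0.85), in the small subunit 31 of 51 rose and 1 fell (0.84), and in ribosome biogenesis 57 of 119 rose and none fell (0.80). These counts stand beside 13.3% of all genes higher. The count for ribosome biogenesis was 27 without replicate 1 or replicate 2 at 128 min, 33 without replicate 1 and 36 without replicate 2 at 4 min, and 10 of 110 with day as a fixed block. RPL25, the protein next to the exit tunnel, read -0.04, -0.08 and 0.42 at 4 min and 1.62, 1.77 and 2.23 at 128 min, a rise of 3.43-fold (adjusted p 5.16e-05). RPL12A rose 3.12-fold with little spread (adjusted p 6.85e-07), from -0.15, -0.01 and -0.14 to 1.35, 1.66 and 1.61. Many ribosomal proteins come as pairs of near-identical genes whose spots can share RNA, so a value may belong to either copy. The small-subunit member that fell, RPS30A, was not above background in Cy5 on any of the 6 arrays.

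Among assembly factors, NOP56, a core protein of the box C/D particles that methylate rRNA, rose 4.67-fold (adjusted p 0.000522), with 0.01 and 0.73 on 2 arrays at 4 min and 2.76 and 2.43 on 2 arrays at 128 min. HAS1, an RNA helicase of the nucleolus, rose 4.62-fold (adjusted p 0.00041), from 0.06, -0.44 and -0.22 to 1.96, 2.63 and 1.44, and with the median of spot pixels by 1.36 on the log2 scale (adjusted p 0.0555). Of the subunits of RNA polymerases I and III, 8 of 20 rose and none fell, with 4 higher without replicate 1 at 128 min and 5 without replicate 2 at 4 min. The polymerase I subunit RPA49 stood at -0.16, -1.07 and -0.18 and then at 1.43, 1.38 and 1.39 (3.64-fold, adjusted p 3.78e-05). The aminoacyl-tRNA synthetases had 14 of 18 higher and none lower (median 1.13), and 9 higher without replicate 1 of either time. KRS1, which charges lysine tRNA, was the highest at 5.19-fold (adjusted p 3.81e-05). KRS1 read 0.09 and 0.26 on 2 arrays at 4 min and 2.73, 2.83 and 2.10 at 128 min. Of the translation factors 7 of 31 (22.6%) were higher, or 3 without replicate 2 at 128 min, and 3 (9.68%) were lower. All genes had shares of 13.3% and 15.3%. One of the lower ones, RPG1, a subunit of initiation factor 3, fell by 1.01 on the log2 scale (adjusted p 0.000846) but stood at 0.39 (adjusted p 0.152) with print-tip loess.

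Sulphur and nitrogen genes were among the steepest rises. Of 34 measured members of sulphur assimilation, methionine and cysteine synthesis, 17 rose and none fell (median 0.95). CYS3, which makes cysteine from cystathionine, read -0.68, -0.33 and 0.35 at 4 min and 3.57, 2.52 and 2.47 at 128 min, a rise of 8.43-fold (adjusted p 4.6e-06). SAM1, an S-adenosylmethionine synthetase, rose 8.71-fold (adjusted p 4.43e-06), from -0.36, -0.47 and -0.32 to 3.70, 2.57 and 1.95. SAM2 makes the same enzyme from a similar sequence and rose 7.77-fold (adjusted p 1.22e-06), so the pair may share hybridised RNA. MET14, the kinase of sulphate activation, was not above background in Cy5 on any array at 4 min. Such a gene has only a bound, the mean normalised Cy5 signal at 128 min over the lowest signal that counts as above background at 4 min or its own where higher. MET14 was at least 4.77-fold higher (adjusted p 0.00262), with 2.97, 1.16 and 3.23 at 128 min, where replicate 2 was the lowest. MET32, a DNA-binding partner of Met4, rose 4.61-fold with little spread (adjusted p 3.81e-07), from -0.44, -0.25 and 0.24 to 1.84, 2.28 and 2.05.

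CAR1, the arginase that breaks arginine down for its nitrogen, had the largest rise that met the naming rule. It read -0.15, -0.22 and 0.23 at 4 min and 3.35, 3.60 and 2.59 at 128 min (9.37-fold, SE 0.26 on the log2 scale, adjusted p 2.88e-08). The naming rule required arrays that do not overlap, and the difference for CAR1 was 3.24 within the first layout and 2.78 within the second. In the list of nitrogen catabolite repressed genes 13 of 25 with a value rose and 3 fell (median 0.91). DAL80, a GATA-type repressor of that regulon, rose 4.91-fold (adjusted p 6.67e-06), from 0.40, -0.19 and -0.07 to 2.58, 1.87 and 2.59. CAN1, the arginine permease, rose 4.2-fold (adjusted p 5.62e-05), from -0.22, 0.02 and 0.62 to 2.63, 2.17 and 1.84. The members that fell were OPT2, PUT2 and PTR2, for peptide or glutathione transport and proline breakdown, with log2 differences of -1.78, -0.97 and -0.94. The call for PTR2 was lost without replicate 3 at 128 min (adjusted p 0.0535) or replicate 1 at 4 min (0.0865).

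Amino acid synthesis was higher in part. Arginine synthesis had 5 of 10 higher and none lower, led by ARG1, argininosuccinate synthetase, at 4.86-fold (adjusted p 1.72e-05), with -0.85 and -0.29 on 2 arrays at 4 min and 1.72, 1.65 and 1.76 at 128 min. Branched-chain synthesis had 6 of 10 higher and 1 lower. BAT1, the mitochondrial branched-chain transaminase, rose 5.23-fold (adjusted p 1.89e-05), from -0.52, -0.59 and -0.24 to 1.88, 1.67 and 2.27. The member that fell was ILV3, dihydroxyacid dehydratase, from -0.13, -0.16 and 0.09 to -1.67 and -1.90 on 2 arrays (3.29-fold, adjusted p 0.000765), a difference of -0.50 with no call under print-tip loess. Aromatic and histidine synthesis had 9 of 19 higher and 1 lower, the lower one being TYR1, prephenate dehydrogenase, by 1.64 on the log2 scale. Lysine synthesis had 1 of 10 higher, beside 13.3% of all genes. Of the remaining amino acid genes 6 of 19 rose and 1 fell. ASN1, asparagine synthetase, rose 8.65-fold (adjusted p 2.63e-07), with -0.32 and -0.15 on 2 arrays at 4 min and 2.64, 3.55 and 2.45 at 128 min. PRO1, the first enzyme of proline synthesis, fell by 2.08 on the log2 scale (adjusted p 2.06e-07). Purine synthesis had 5 of 16 (31.2%) higher and 1 (6.25%) lower, beside 13.3% and 15.3% of all genes. Without replicate 2 at 128 min or replicate 1 at 4 min 3 of the 16 were higher, nearer the share of all genes.

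Further leading genes had varied roles. NCA3, a wall protein of the SUN family, went from 0.17, 0.28 and 0.88 to 3.67, 3.54 and 3.38 (8.48-fold, adjusted p 1.09e-06). NCE103 showed more spread, from -0.04, 0.94 and 0.56 to 4.41, 2.40 and 2.87 (6.69-fold, adjusted p 3.74e-05). Other genes were not above background in Cy5 at 4 min. PRY2, a secreted sterol-binding protein, was at least 6.10-fold higher and PUN1, a plasma membrane protein, at least 4.29-fold (adjusted p 4.27e-07 and 2.63e-07). OAC1, a mitochondrial oxaloacetate carrier, read 2.79, 2.51 and 3.26 at 128 min (adjusted p 4.15e-07) and is given without a fold. RSR1, the GTPase that marks the bud site, rose from 0.05, 0.13 and 0.05 to 2.73, 2.88 and 2.25 (5.84-fold, adjusted p 3.7e-06).

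Among the falls, PIL1, the core protein of eisosomes, went from -0.15, -0.03 and 0.28 to -3.28, -3.75 and -3.40 (11.4-fold, adjusted p 3.46e-07). FMP45 fell 10.8-fold (adjusted p 4.73e-07). TOR1, a kinase of the nutrient-sensing TORC1 complex, fell 9.77-fold (adjusted p 1.08e-06), from -0.01, -0.25 and -0.22 to -3.45, -3.96 and -2.93. RGI2, linked to respiratory energy metabolism, fell 11.6-fold (adjusted p 1.52e-06), with the widest spread of the leading falls at 128 min, from -4.26 to -2.50. LPX2 fell 10.1-fold (adjusted p 4.18e-07). YFL013W-A, an open reading frame whose systematic name places it beside HSP12 (YFL014W), fell 10.8-fold (adjusted p 1.63e-07), and whether its spot also takes up HSP12 RNA was not tested.

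In a list of transcription factors, most of them named by the study, and the disaggregase HSP104, 30 of 33 members had a value, 6 rose, 3 fell and 21 did not pass the test. The shares were 20% higher and 10% lower, beside 13.3% and 15.3% of all genes. MET32 rose most, as given above. AFT1, the activator of iron uptake, read 0.22 and -0.01 on 2 arrays at 4 min and 1.94, 1.89 and 1.78 at 128 min (3.4-fold, adjusted p 0.000326). NRG1, a repressor in glucose repression, was already above the dormant level on every array at 4 min, with 0.83, 0.77 and 0.53, and stood at 2.75, 2.47 and 2.08 at 128 min (3.3-fold, adjusted p 9.43e-05). ROX1, the repressor of hypoxic genes, rose from 0.44, 0.21 and 0.48 to 2.32 and 1.77 on 2 arrays (3.18-fold, adjusted p 5.62e-05; 0.052 with day as a fixed block). PHD1, an activator of filamentous growth, rose 2.73-fold (adjusted p 0.00286), but by 0.66 on the log2 scale (adjusted p 0.223) within the first layout. MIG1, the zinc finger repressor of glucose repression, rose 2.08-fold (adjusted p 0.0135), with -0.25, 0.21 and 0.51 before 1.40, 1.28 and 0.95. Its call was lost without replicate 1 at 128 min (adjusted p 0.0595), without replicate 1 at 4 min (0.0803) and with the median of spot pixels in place of the mean (log2 difference 0.39).

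RAP1, the general activator of ribosomal protein and glycolytic genes, fell 1.9-fold (adjusted p 0.00276), from 0.35, 0.19 and -0.02 to -0.88, -0.80 and -0.57, and lost its call with day as a fixed block (-0.66, adjusted p 0.177) and within the second layout (adjusted p 0.0663). GCR1, an activator of glycolytic genes, fell 1.68-fold (adjusted p 0.0338), a call lost without replicate 2 at 128 min (0.199) or without any of the 3 arrays at 4 min (0.0567 to 0.0997). HSP104 fell 3.12-fold (adjusted p 0.00535), from 0.98, 0.44 and 0.43 to -0.98, -1.85 and -0.24, and without replicate 2 at 128 min the adjusted p was 0.0556. Early HSP104 thus lay above the dormant level on all 3 arrays and late HSP104 below it.

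Markers of mating were higher at the end. Of 10 markers of haploid cells able to mate, 8 rose and none fell (median 1.21), and 7 of them had Cy5 above background on some array at 4 min and all 10 at 128 min. FAR1, which arrests the cycle in response to pheromone, went from -0.50, -0.10 and -0.77 to 1.42, 1.29 and 1.53 (3.64-fold, adjusted p 5.54e-06). MF(ALPHA)1, a gene of alpha factor measured on 2 arrays at 128 min, was at least 1.92-fold higher (adjusted p 0.000753). The a-factor receptor STE3 had a difference of -0.44 (adjusted p 0.435) and the alpha-factor receptor STE2 0.43 (adjusted p 0.213). In the wider list of 50 mating genes 13 (26%) rose and 4 (8%) fell, beside 13.3% and 15.3% of all genes. Without replicate 2 at 128 min 8 rose and 1 fell. Without replicate 3 at 4 min 1 fell.

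Of 10 markers of dividing cells none rose and 2 (20%) fell, beside 13.3% and 15.3% of all genes. POL30, the replication clamp, fell 3.19-fold (adjusted p 4.79e-06), from -0.04, 0.11 and 0.23 to -1.62, -1.64 and -1.47. Of 50 genes of DNA replication 5 (10%) rose, or 2 without replicate 1 or 2 at 4 min and 3 without replicate 2 at 128 min, and 3 (6%) fell. Neither share was larger than that of all genes. Of 22 mitotic genes 1 rose and 1 fell and of 25 genes of the start of the cycle 3 rose and 2 fell, beside 13.3% and 15.3% of all genes. Of 8 meiotic markers 1 (12.5%) rose and 2 (25%) fell. Of 45 spore wall genes 8 (17.8%) fell and none rose, near the 15.3% of all genes that fell. Without replicate 1 at 128 min or replicate 2 at 4 min 5 of these were lower. Iron genes had 10 of 25 (40%) higher and none lower, beside 13.3% and 15.3% of all genes. ATX1, the copper chaperone of iron uptake, not above background in Cy5 at 4 min, read 2.29, 2.13 and 1.49 at 128 min (adjusted p 1.14e-06). Ergosterol synthesis had 9 of 27 (33.3%) higher and 2 (7.41%) lower, with ERG4, its last enzyme, at least 5.21-fold higher (adjusted p 2.7e-06). Wall genes had 12 of 45 (26.7%) higher and 3 (6.67%) lower, beside the same shares of all genes.

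The end state was reached in steps. The medians of the 3-array means per list, given here with no test, show when each list left the dormant level in glucose. Ribosome biogenesis stood at 0.47 at 8 min and 0.96 at 16 min, and at 0.71 at 128 min. The large ribosomal subunit still had -0.09 at 16 min, then 0.50 at 48 min and 0.81 at the end. Stress genes went from -0.20 at 8 min through -0.62 at 16 min and -1.16 at 32 min to -1.93 at 128 min. Branched-chain genes were at 0.22 at 32 min and 1.03 at 96 min. Nitrogen catabolite repressed genes were still at 0.10 at 48 min, then at 0.79 at 64 min and 0.93 at 128 min. The mating markers came last, with 0.29 at 96 min and 1.17 at 128 min. Single genes had courses of their own. NCE103 stood at 2.66 by 8 min and stayed between 2.66 and 3.23. CAR1 stood at 1.05, 0.66 and 1.02 at 16, 32 and 48 min before it reached 2.05 at 64 min and 3.31 at 96 min, and PRY2 at 0.11, 1.07 and 2.48 at 64, 96 and 128 min. At 8, 16 and 128 min, 3.91%, 6.95% and 7.1% of genes lay at least 2-fold above the dormant level, and 0.264%, 4.33% and 9.3% as far below it, each over the genes with a value on at least 2 arrays of that time.

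**Figure D3:**
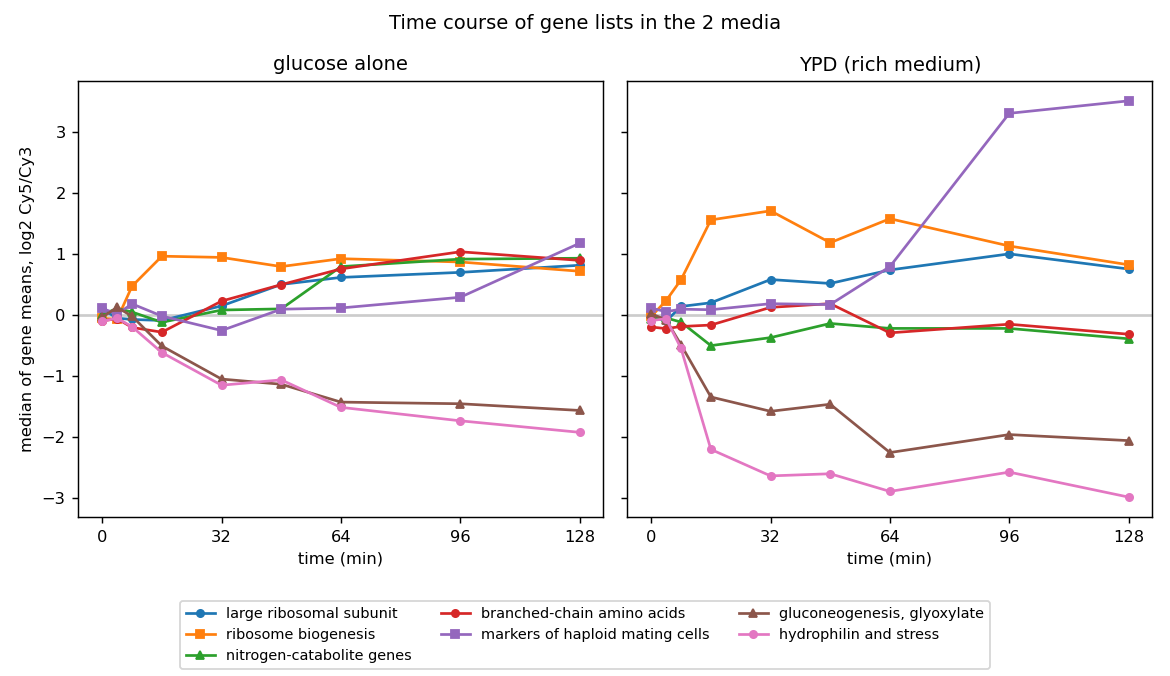
Median over list members of the mean log2 Cy5/Cy3 per time point (y axis) against time in min (x axis) for 7 gene lists in glucose alone (left) and in YPD (right), 3 arrays per time except 0 min in glucose with 2. In glucose the nitrogen list leaves 0 between 48 and 64 min, from 0.10 to 0.79, and the mating markers reach 1.17 at 128 min where they are at 3.51 in YPD.

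Set beside YPD, the change from 4 to 128 min in glucose differed in nitrogen, branched-chain, stress and mating genes, among others. The levels at 128 min were not tested against each other. The difference between the 2 changes from 4 to 128 min was tested in 1 model over all 53 arrays, which reuses the glucose arrays above. All YPD arrays were of the first layout. Those at 4 min were quantified on 1 day and those at 128 min on another, so in YPD time cannot be told apart from day. Among 5848 genes tested in both media, the change in glucose was higher for 421 (7.2%) and lower for 136 (2.33%). With layout as a block the counts were 480 and 163. The baseline is not the same in the media, since at 4 min in YPD already 5.15% of genes were at least 2-fold above the dormant level, against 0.458% in glucose. In YPD itself 1041 genes (17.8%) were higher and 1449 (24.8%) lower at 128 min than at 4 min. These YPD counts come from a fit of all 53 arrays, unlike the glucose counts above. With all 53 arrays in the fit, 973 of 6003 genes were higher and 1072 lower in glucose.

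Of the nitrogen catabolite repressed genes, 11 of 25 had a higher change in glucose and none a lower one, with a median change of 0.91 in glucose and -0.38 in YPD. The change of CAR1 from 4 to 128 min exceeded that in YPD by 2.70 on the log2 scale (adjusted p 1.94e-05), and its level in YPD was 0.54 at 4 min and 1.07 at 128 min. DAL80 had a difference of 2.71 (adjusted p 1.94e-05) and CAN1 of 2.81 (adjusted p 2.05e-06), CAN1 having been at 1.55 at 4 min in YPD. Branched-chain genes had 6 higher changes in glucose and none lower, of 9 tested. LEU1, isopropylmalate isomerase, stood at 1.58 in glucose and -1.43 in YPD at 128 min, a difference of change of 2.46 (adjusted p 0.000185). CPA1, a subunit of the arginine-specific carbamoyl phosphate synthetase, had a difference of 3.32 (adjusted p 2.7e-07), with 2.01 in glucose and 0.15 in YPD at 128 min. In sulphur genes 4 changes were higher and 2 lower of 34, with medians of 0.95 in glucose and 0.71 in YPD, and the difference for CYS3 was -0.18 (SE 0.46, adjusted p 0.873).

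Among single genes, the change of NCE103 exceeded that in YPD by 4.64 (adjusted p 5.78e-07), from a level of 0.48 to 3.23 in glucose and from 2.06 to 0.16 in YPD. For MIG1 the difference between the changes was 3.53 (adjusted p 9.6e-08). In YPD it stood at 2.43 at 4 min, 2.68 at 16 min and -0.05 at 128 min, against 0.16, 1.60 and 1.21 in glucose, so the early rise in YPD enters this difference. YFL013W-A had a difference of 4.32 (adjusted p 1.53e-09) and HSP12 of 3.75 (adjusted p 2.8e-06), since in YPD they reached -7.55 and -7.73. Stress genes as a list had 15 of 40 changes higher in glucose and none lower, that is smaller falls, with a median of -1.87 in glucose and -2.75 in YPD. Of the carbon lists, the change was higher in glucose for 6 of 21 hexose transport genes, 2 of 17 in the TCA cycle, 1 of 21 in gluconeogenesis and 1 of 31 in respiration, and lower for none of these, beside 7.2% and 2.33% of all genes.

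Mating genes differed in the opposite direction, with a change lower in glucose for 22 of 47 tested and higher for 1. Of the 9 mating markers tested all had a lower change in glucose. AGA1, an anchor of agglutinin, stood at 4.92 in YPD and 1.24 in glucose at 128 min, a difference of change of -3.29 (adjusted p 2.23e-05). MF(ALPHA)1 stood at 4.43 in YPD and 1.59 in glucose (difference -2.95, adjusted p 1.8e-05). SAG1, the alpha agglutinin, had the largest lower change (-4.71, adjusted p 0.000194), but in glucose it read 0.25, 0.08 and 4.45 at 4 min and 0.16 and 0.05 at 128 min, so that 1 array of the baseline, replicate 3, stood far from the others. AGA1 in glucose alone passed the test (2.77-fold, adjusted p 0.0148) and lost it without replicate 2 at 128 min (adjusted p 0.325), replicate 1 at 4 min (0.0616) or replicate 3 at 4 min (0.052).

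**Figure D4:**
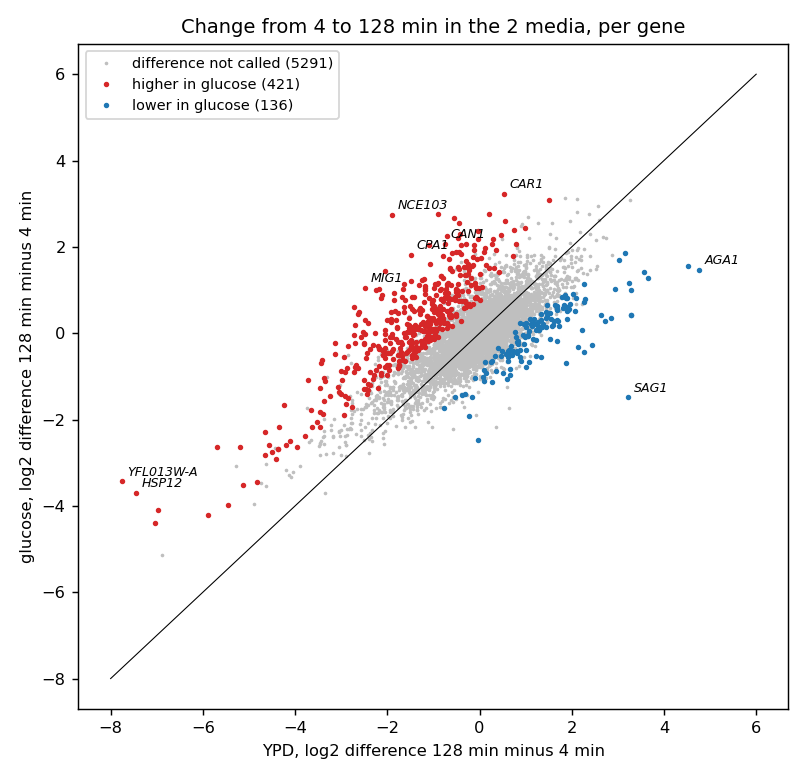
Log2 difference between 128 and 4 min in YPD (x axis) and in glucose (y axis), 1 point per gene tested in both media, with the line of equal change. Red points (421) are genes whose change was higher in glucose and blue points (136) genes whose change was lower, at an adjusted p under 0.05; HSP12 and YFL013W-A lie far to the lower left above the line, and SAG1 and AGA1 to the right below it.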

How the data were processed

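Scans were quantified in ImaGene 6.0.1 per the file headers, and the authors deposited 1 file of spot intensity per dye and array, with no background subtraction and no normalization, and a table of 1 log2 ratio per gene and time point, the authors' means after loess. The methods name other scanning software than the headers. The labels speak of biological and scan replicates, so p-values measure the spread between these arrays, which may be partly technical.

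Spot means were corrected by normexp (offset 50) and normalized by global loess within arrays (limma 3.58.1, R 4.3.3), leaving out control spots and spots marked poor or by hand (11.4% to 14.3%). Spots of a gene were averaged. Of 6218 genes on the arrays, 6003 had values on at least 2 arrays per group, and 5455 of these matched the RefSeq table of names (R64). The fit held all 26 glucose arrays (lmFit, eBayes, Benjamini-Hochberg). In simulated data for 6003 genes, 200 of them changed, 43% of 2-fold and 98% of 4-fold changes were found, with 6.62% false calls. The simulated noise was independent between arrays and held no effect of day or layout. The share of false calls in the real data is therefore not given by it. The number of arrays and the signal over background limit the precision.

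Genes and lists were chosen with earlier results of these data known. Named were the 10 largest called rises and falls with all 6 values, no overlap and Cy5 above background in the higher group, up to 3 called members of each list per direction, the regulators called (AFT1 is not named in the study's text), and the 3 largest differences from YPD per direction. STE2 and STE3 were added after their values were seen. Promoter motifs were not analysed here, and 1 gene that met the naming rule is not reported here. Alternatives varied background correction, normalization, spot measure, flags, filters, blocks, baseline and arrays.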

Additional observations from a re-analysis of the deposited data

Results flagged for a closer look

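By the test of the difference itself, the change from 4 to 128 min was higher in glucose than in YPD for 421 genes and lower for 136. Named genes among them are given here as log2 differences of change. A higher change need not be a higher level at 128 min, since the levels at 4 min differed between the media. Groups of 3 arrays were not searched for outlying samples.

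Nitrogen, arginine and other amino acid genes had higher changes in glucose, with CAN1 at 2.81, DAL80 at 2.71, CAR1 at 2.70, CPA1 at 3.32, ARG1 at 1.82, LEU1 at 2.46, BAT1 at 1.65, TRP5 at 1.94 and GDH1 at 2.46. The carrier OAC1 was at 2.57 and the malic enzyme MAE1 at 1.23. Glucose-responsive regulators had higher changes as well, MIG1 by 3.53, MIG2 by 2.17, NRG1 by 2.39 and ROX1 by 1.95, as had NCE103 by 4.64 and the bud-site GTPase RSR1 by 2.98. Single growth genes with a higher change were HAS1 (2.67), NSR1 (2.17) and KRS1 (2.41), and chaperone genes YDJ1 (2.17) and SSE1 (1.79). By list the change was higher for 8 and lower for 3 of 114 ribosome biogenesis genes, beside 7.2% and 2.33% of all genes. It was higher for 1 of 17 tRNA synthetases and lower for none. In the large and small ribosomal subunits it was higher for none, and lower for 2 of 65 and 2 of 48. Of 27 chaperones it was higher for 9 and lower for none. The median of the chaperone list, with no test, went from 0.16 at 4 min to -0.20 at 128 min in glucose. In YPD it went from 0.72 to -0.31. Ribosome biogenesis went from -0.07 to 0.71 in glucose and from 0.23 to 0.82 in YPD.

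Genes that fell less in glucose than in YPD were YFL013W-A (4.32), HSP12 (3.75), SIP18 (2.88), GRE1 (1.68), PIL1 (1.61), XBP1 (1.52), SPG1 (1.49), FMP45 (1.38), CDC20 (1.42), HHT1 (1.24) and HHT2 (1.02). The wall gene NCA3 (1.57), the copper chaperone ATX1 (1.29) and the meiotic activator NDT80 (2.12) also had higher changes.

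Changes were lower in glucose for the mating genes SAG1 (-4.71), AGA1 (-3.29), MF(ALPHA)1 (-2.95), FAR1 (-1.30) and PRM2 (-1.06), the sporulation gene GIP1 (-1.40), the wall gene UTR2 (-1.34) and the histone gene HTA1 (-1.27).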

How the results depend on the processing

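Counts within 1.5 times of 797 higher and 920 lower were found under the other settings, apart from quantification day as a fixed block (329 and 290), the second layout only (355 and 329) and, for the higher genes, leaving out replicate 2 at 128 min. The cause was not tested, beyond fewer arrays carrying the contrast in each. Leaving out 1 array at a time gave 523 to 787 higher and 625 to 951 lower genes, and for the difference from YPD 330 to 396 higher and 91 to 146 lower, against 421 and 136. With print-tip loess the latter was 206. The replicate number as a block gave 927 and 1033, and 489 and 180 for the difference from YPD. The numbers of the deposited files do not pair the samples (correlations of deviations -0.191, 0.0427 and -0.13). Those of the image names gave 0.257, 0.0722 and 0.0858. At every time in glucose the array with image number 1 was of the second layout and quantified on the same day. Whether the image numbers pair cultures was not tested, and the main fit holds no pairing. As a block the image numbers gave 1003 and 1066, an alternative chosen after seeing the data like the pair of arrays of 1 day. Among 155 named genes the direction reversed for RPG1 with print-tip loess (0.39) and for NDT80 with all spots kept (-0.32), without a call. The authors' table, with 0.936 as its correlation with these differences across 5992 genes and a slope of 0.624, has 154 genes at least 2-fold higher and 300 lower, against 497 and 553 here before any test. With print-tip loess 19 of the 155 named genes kept their direction but lost their calls, among them HSP12, FMP45, PGI1 and ILV3. With day as a fixed block this held for 52 of 149 with a value. For 122 genes called higher the level at 4 min was not above background. From 0 min as the baseline 37 of 155 named genes lost their calls, among them HSP42, MAE1, PTR2, AGA1 and GCR1. Within the second layout 1 array at 128 min carries the contrast. There ACS1 differed by -2.17, HAS1 by 1.63, HSP104 by -0.95, YDJ1 by 0.75 and RPG1 by -0.72. In the main fit these were -3.08, 2.21, -1.64, 1.34 and -1.01. MAE1 (0.98) and MIG1 (0.97) stayed near their main differences of 0.98 and 1.05.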
